A study of Mus musculus with 9 samples.

Results

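The 10 genes described here encode chromatin cofactors with which MyoD1, a transcription factor that drives muscle differentiation, is known to work: Smarcd3, Smarca4, Smarca2, Ep300, Kat2b, Carm1, Prmt5, Setd7, Ezh2 and Hdac1. They were chosen by name, with earlier results of these data known. The question put to the data was where MyoD1 itself sat on these genes, and how that differed between cells with endogenous and with raised MyoD1. Peaks were counted as belonging to a gene when they overlapped, by at least 1 bp, its body extended by 10 kb on each side (its window, mouse build mm10, GENCODE M21 annotation). All 10 genes were found, of 21951 protein-coding genes. Peaks of the 6 libraries that overlapped or touched were merged into 58309 regions, of which 47 fell in the 10 windows.

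Binding was measured by CUT and RUN, in which an antibody on permeabilised nuclei guides a nuclease to a protein and the released DNA is sequenced. The cells were C2C12, a mouse skeletal myoblast line, in which MyoD1 carried a 3xFlag-Halo tag at its own locus and an extra doxycycline-inducible copy with the same tag was driven by a TRE3G-type promoter. Both groups carried both constructs and both were moved to differentiation medium: 3 libraries received no doxycycline (no dox) and 3 received it for 6 h (+dox). The antibody recognised Flag, so tagged protein from either source was captured, and the 3 wild-type libraries without a tag were not analysed here. All cultures came from 1 engineered line, and because binding and not expression was measured, the cell type of the labels was not checked against markers.

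MyoD1 binds E-box motifs, of which CAGCTG is its preferred form, as a heterodimer with E proteins, and it recruits enzymes that open or modify chromatin at muscle genes. SWI/SNF complexes slide nucleosomes, acetyltransferases mark histones near active genes, and arginine methyltransferases also modify histones. Polycomb and deacetylase complexes hold muscle genes silent in undifferentiated myoblasts. Several of these enzymes also modify MyoD1 itself.

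The values are those of peaks called by the authors in each library alone. Height is the maximum signal of a peak, scaled by the authors to library size (CPM), and its percentile is its rank by height within its own list, where 100 is the highest. The lists held 9389 to 13877 peaks apart from +dox replicate 3, which held 53661 at the largest depth, 8030000 alignments against 2868000 to 4667000 in the others. The lowest total signal (CPM summed over the bases of a peak) that was called was 354 and 336 in the replicates 3 of no dox and +dox, and 837 to 904 in the other 4 libraries. The replicates 3 also had a smaller share of peaks near gene starts: 27.4% of the regions called in no dox replicate 3 and 19.4% of those in +dox replicate 3 had their maximum within 1 kb of a gene start, against 44.0% to 53.5% in the other libraries. The part of these differences in the results was not tested. A list with many weak peaks places any peak of a given height at a higher percentile, so percentiles were also taken among the 4838 regions called in all 6 libraries.

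MyoD1 was called in the windows of all 10 cofactors. No dox libraries had a peak in 9, 9 and 8 of the 10 windows (replicates 1, 2 and 3), and each +dox library had one in all 10. Every window held a Core region, that is, a region called in at least 2 of 3 no dox libraries, against 35.4% of the windows of all protein-coding genes; the cofactor windows were 30.3 to 193 kb long and the median window was 37.4 kb. There were 14 Core regions in all. Expanded regions, called in at least 2 of 3 +dox libraries and overlapping no Core region, lay in 4 windows (Smarcd3, Ep300, Kat2b and Hdac1), against 25.7% of all windows. No region in the 10 windows was a no dox consensus without a +dox consensus. The share of all regions with this pattern was not taken. The absence of such regions in the 10 windows therefore has no background beside it. A stricter pattern, called in every no dox and in no +dox library, was found in 0.00858% of all regions. That value does not give the share of the looser pattern.

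What most of these genes had in common was binding at their starts. In 9 of the 10 genes, all but Smarcd3, a region had its maximum within 1 kb of the annotated gene start, against 47.4% of protein-coding genes and 29 of 36 other genes of the same complexes. Without dox, 6 of these start regions were called in replicate 1, 7 in replicate 2 and 5 in replicate 3. With dox, all 9 were called in each of the 3 libraries. Thus 9 of 10 cofactors had a start region called in 3 of 3 +dox libraries, where 23.0% of protein-coding genes had one, and 2 of 10 (Ep300 and Setd7) had one called in 3 of 3 no dox libraries, where 11.3% of genes did. The 7 genes called at their start in every +dox library but not in every no dox library were Smarca4, Smarca2, Kat2b, Carm1, Prmt5, Ezh2 and Hdac1. Over all protein-coding genes the share in this class was 12.2%, but most of those genes had no start region in any library. Of the 5039 protein-coding genes with a start region in all 3 +dox libraries, 2668 fell in this class, beside 7 of the 9 cofactors. Of these 36 other genes, 14 had a start region in all 3 +dox libraries, 9 in all 3 no dox libraries and 6 fell in the last class.

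The difference in start calls depended on how the lists were matched. With no dox replicate 3 left out, or with both replicates 3 left out, 4 genes were called at the start in every +dox but not in every no dox library, and 9 were still called in every +dox library. With every list held to one floor of total signal, or with peaks cut to 250 bp on each side of their maximum, the numbers were 6 and 8. When every list was cut to its 9389 highest peaks, the length of the shortest list, 3 genes had a start region in every +dox library and 2 of these lacked it in a no dox library. The start regions stood at percentiles between 6.47 and 89.3 where they were called, and 8 of the 9 were Core regions (20.1% of protein-coding genes had a Core region at the start). That of Kat2b was Expanded.

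**Figure D1:**
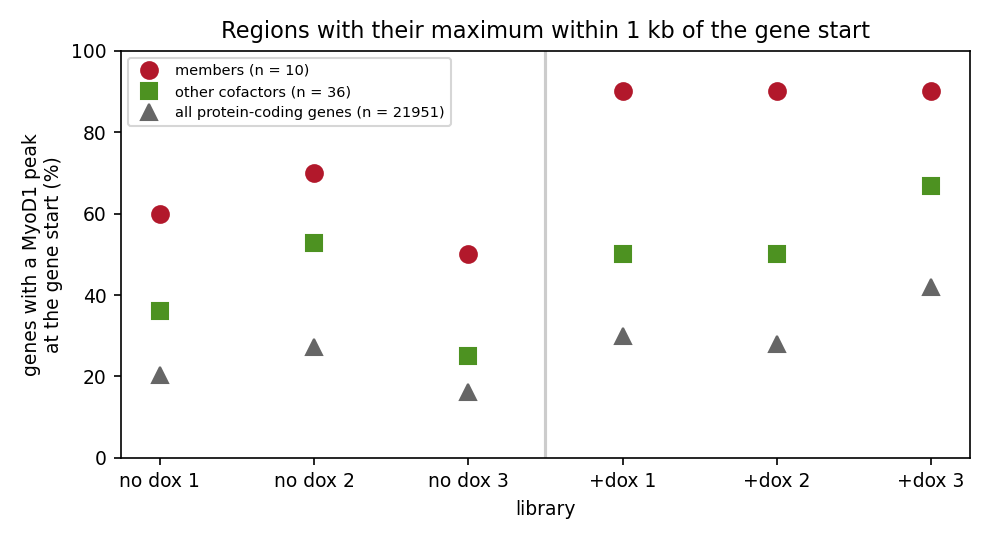
Percentage of genes with a MyoD1 region whose maximum lay within 1 kb of the gene start (y axis), in each library (x axis), for the 10 cofactors (circles, named members), the 36 other genes of the same complexes (squares) and all 21951 protein-coding genes (triangles). The 10 cofactors stood at 5 to 7 of 10 genes without dox and at 9 of 10 in each +dox library, and all protein-coding genes at 16.1% to 27.3% and 27.9% to 41.9%.

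Smarcd3 encodes the SWI/SNF subunit BAF60C, which contacts MyoD1 and guides the remodelling complex to muscle genes. It was the cofactor with the most regions and the highest peak, and the one gene of the 10 without a region at its start. The gene lies on the minus strand of chromosome 5 (chr5:24590818-24624411, ENSMUSG00000028949.13), and its window held 10 regions, 4 of them called in all 6 libraries; 0.364% of protein-coding windows held 4 or more such regions. Over all regions the share called in all 6 libraries was 8.30%, and in the 10 windows together it was 7 of 47.

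The highest of them, region 3 (chr5:24590851-24592450), lay at the 3′ edge of Smarcd3. Its nearest annotated gene start was that of Mir671, 588 bp from the maximum. The maximum was in a coding exon of Chpf2, the neighbouring gene on the opposite strand, which encodes an enzyme of chondroitin synthesis, and 1096 bp beyond the end of the protein-coding Smarcd3 transcripts. Its height was 58.6, 58.3 and 17.1 CPM in no dox replicates 1, 2 and 3 and 152, 122 and 39.8 CPM in +dox replicates 1, 2 and 3. The percentiles were 98.9, 98.8 and 96.03 without dox and 99.2, 99.4 and 99.2 with dox. The +dox libraries stood above the no dox libraries in percentile, by a narrow margin near the top of the scale, and in height they overlapped, since +dox replicate 3 was below no dox replicates 1 and 2. Ranked among the regions called in all 6 libraries they also overlapped, at 97.9, 97.2 and 89.5 without dox and 98.0, 98.4 and 91.2 with dox. Only 0.624% of protein-coding windows had a mean highest percentile at or above that of the Smarcd3 window. Where a region counted only if its nearest protein-coding start was that of the member, regions 3, 7 and 8 fell to Chpf2. Of the 4 regions called in all 6 libraries, region 9 alone then stayed with Smarcd3.

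The other 3 regions called in every library lay in introns. Region 7 (chr5:24599351-24603700) covered the start of the short protein-coding Smarcd3 transcript at position 24602012, with its maximum 1486 bp from it. Its height was 5.82, 9.48 and 13.7 CPM without dox and 9.76, 11.1 and 46.8 CPM with dox. The percentiles were 55.5, 80.4 and 94.2 without dox and 55.8, 69.4 and 99.4 with dox, so both replicates 3 were above the other libraries of their group and the groups overlapped. Region 8 (chr5:24603851-24605350) stood at percentiles of 43.0, 60.7 and 55.3 without dox and 70.5, 54.4 and 84.8 with dox. Region 9 (chr5:24611501-24612750) stood at 57.7, 76.0 and 38.6 without dox and 51.2, 60.5 and 86.3 with dox. Both overlapped between the groups.

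Region 1 of the same window (chr5:24586301-24587000), at the start of Chpf2, was called in none of the no dox and in all 3 of the +dox libraries, at percentiles of 16.0, 19.0 and 54.0. The remaining 5 regions were called in 1 or 2 libraries.

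These sequences are shown to compare the strongest region of the set, an intronic Smarcd3 region, a region with several E-boxes and a gene start at which the groups did not overlap in percentile. Each is 200 bases around the median position of the maximum, read 5′ to 3′ on the plus strand of GRCm38, the assembly behind mm10. Capitals mark CAGCTG and CAGGTG, an E-box that MyoD1 also binds (CACCTG on the other strand).
Smarcd3 region 3 (chr5:24591426-24591625): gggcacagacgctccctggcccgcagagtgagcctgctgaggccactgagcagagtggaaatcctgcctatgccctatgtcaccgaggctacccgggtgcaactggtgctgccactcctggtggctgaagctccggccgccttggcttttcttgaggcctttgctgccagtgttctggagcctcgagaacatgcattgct
Smarcd3 region 8 (chr5:24604876-24605075): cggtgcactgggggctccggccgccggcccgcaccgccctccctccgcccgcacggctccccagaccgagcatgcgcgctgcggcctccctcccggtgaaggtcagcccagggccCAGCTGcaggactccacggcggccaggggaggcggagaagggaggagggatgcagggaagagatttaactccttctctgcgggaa
Kat2b region 5 (chr17:53596476-53596675): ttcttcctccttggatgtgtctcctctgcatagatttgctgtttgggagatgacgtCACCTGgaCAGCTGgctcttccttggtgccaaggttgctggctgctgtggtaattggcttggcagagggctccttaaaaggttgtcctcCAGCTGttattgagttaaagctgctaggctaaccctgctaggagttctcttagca
Ep300 region 1 (chr15:81585139-81585338): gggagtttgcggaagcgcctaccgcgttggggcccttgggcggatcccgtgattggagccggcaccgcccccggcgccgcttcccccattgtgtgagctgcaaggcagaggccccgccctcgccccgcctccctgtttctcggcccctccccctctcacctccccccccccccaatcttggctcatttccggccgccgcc
No capitals appear in the sequences of Smarcd3 region 3 and Ep300 region 1: neither motif lay in those 200 bases. Over the whole region, extended by 100 bp on each side, Smarcd3 region 3 held 1 CAGCTG and 2 CAGGTG. Ep300 region 1 as a whole held 2 CAGGTG and no CAGCTG, and its maximum differed by up to 500 bp between libraries. Smarcd3 region 8 held 1 CAGCTG, and Kat2b region 5 held 3 marked E-boxes. The letters describe the printed stretches and do not show which bases MyoD1 contacted.

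**Figure D2:**
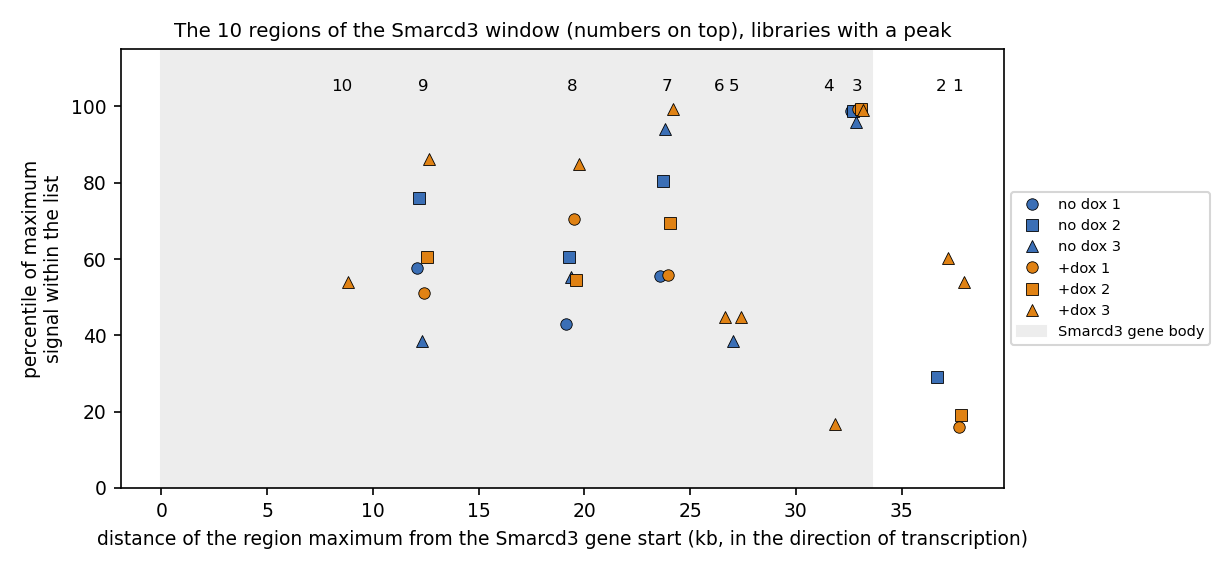
Percentile of maximum signal (y axis) of the 10 regions in the Smarcd3 window, against the distance of the region maximum from the Smarcd3 gene start in kb along the direction of transcription (x axis, libraries shifted slightly sideways). Blue points are no dox and orange points +dox libraries, circles, squares and triangles are replicates 1, 2 and 3, the grey band is the gene body, and region 3 stands at 96.03 to 99.4 in every library.

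Smarca4 and Smarca2 encode BRG1 and BRM, the alternative ATPase motors of SWI/SNF. Both had 1 Core region, and in both it lay at the gene start and was missing from no dox replicate 3. For Smarca4 (chr9:21616169-21704230, plus strand), region 2 (chr9:21615601-21616900) had its maximum 7 bp from the start. Its percentiles were 36.6 and 60.7 in no dox replicates 1 and 2, and 67.2, 50.8 and 81.1 in +dox replicates 1, 2 and 3. The other 5 regions of the Smarca4 window were called in +dox replicate 3 alone, at percentiles of 4.90 to 44.8.

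For Smarca2 (chr19:26605050-26778322, plus strand), region 1 (chr19:26603901-26606250) was the highest gene start of the set. Its percentiles were 82.2 and 84.5 in no dox replicates 1 and 2, and 84.3, 80.6 and 89.3 with dox. The mean highest percentile of the Smarca2 window was 60.5 ± 39.5 in the no dox and 84.7 ± 4.39 in the +dox libraries (SD, n = 3 each), and with both replicates 3 left out the difference (+dox minus no dox) was -0.894. Region 5 (chr19:26747651-26748600), called in +dox replicate 3 alone at a percentile of 54.0, covered a group of starts of shorter Smarca2 transcripts. The windows of Smarca4 and Carm1, neighbours on chromosome 9, were 3545 bp apart and shared no region.

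Ep300 encodes the acetyltransferase p300, which acetylates histones at enhancers and promoters and also acts on MyoD1. Its start region ranked higher with dox within the lists, but not in every replicate among regions common to all libraries. Region 1 (chr15:81584451-81586500, plus strand gene at chr15:81585351-81652077) had its maximum just upstream of the start. Its percentiles were 48.5, 37.5 and 55.3 without dox and 73.3, 63.2 and 84.0 with dox. Each +dox library stood above each no dox library, and the mean was 47.1 ± 8.98 without and 73.5 ± 10.4 with dox (SD, n = 3 each). Within replicate numbers 1, 2 and 3 the difference was 24.8, 25.6 and 28.7. Among the regions called in all 6 libraries the percentiles were 24.8, 6.42 and 24.3 without dox and 46.2, 26.8 and 17.4 with dox. On that scale the groups overlapped and the difference was 21.4, 20.3 and -6.84 within replicate numbers 1, 2 and 3. Ranked by total signal in place of height, the groups of the Ep300 window overlapped as well and the difference was 8.83. A second, Expanded region (chr15:81648901-81650750), in a coding exon near the 3′ end, was weak: its percentiles were 2.25 and 4.90 in +dox replicates 2 and 3 and 14.9 in no dox replicate 3.

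Kat2b encodes PCAF, an acetyltransferase that acetylates MyoD1 and histones. Among the 10 genes, its start alone was called in every +dox and in none of the no dox libraries. Region 1 (chr17:53566851-53569200, plus strand gene at chr17:53566861-53672720), with its maximum 190 bp inside the gene, stood at percentiles of 45.3, 46.9 and 73.2 with dox. Together with Smarcd3 region 1 this made 2 of 47 regions, in 2 of 10 windows, against 1.09% of all regions and 3.76% of protein-coding windows. The reverse pattern was found in 0 of 47 regions, against 0.00858% of all regions. The maximum of the Kat2b region differed by up to 1450 bp between libraries. The count of 2 moved with the processing: with peaks cut to 250 bp on each side of the maximum, or with one floor of total signal 1 region of this kind was left in the 10 windows, and at equal list length 0.

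The highest region of Kat2b ranked lower with dox in replicates 1 and 2 and higher in replicates 3. Region 5 (chr17:53595801-53597300), in an intron 29715 bp from the start and with 3 CAGCTG, stood at percentiles of 74.2, 72.2 and 93.5 without dox and 49.3, 60.5 and 98.4 with dox. In CPM its height was 8.84, 7.23 and 12.9 without dox and 8.37, 8.90 and 28.4 with dox. Within replicate numbers the difference in percentile was -24.9, -11.7 and 4.95, so the groups overlapped, and the replicates 3 were highest in both. Region 3 (chr17:53586651-53588250), also intronic, was called in both replicates 3, at percentiles of 90.5 and 93.2 (10.3 and 10.5 CPM), and in no other library.

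Carm1 and Prmt5 encode arginine methyltransferases, the first an activator and the second required for the remodelling of muscle promoters. For Carm1 (chr9:21546894-21592623, plus strand), start region 2 (chr9:21545751-21547150) stood at percentiles of 60.7 and 66.0 in no dox replicates 2 and 3 and at 60.8, 60.5 and 79.9 with dox, and was not called in no dox replicate 1. Region 5 (chr9:21591901-21593900), at the 3′ end of Carm1 and 146 bp from the start of Timm29, was called in all 3 no dox libraries at 43.0, 76.0 and 38.6 and in +dox replicates 2 and 3 at 50.8 and 87.9. In highest percentile the groups of the Carm1 window overlapped by height, while by total signal each +dox library stood above each no dox library, with a difference of 19.7.

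For Prmt5 (chr14:54507187-54517525, minus strand), region 2 (chr14:54516801-54517800) had its maximum 49 bp from the start. Its percentiles were 53.3 and 47.9 in no dox replicates 1 and 3 and 55.8, 65.7 and 86.9 with dox, and it was not called in no dox replicate 2. Each +dox library stood above each no dox library, though by 2.48 between the replicates 1.

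Setd7 and Ezh2 encode lysine methyltransferases, the latter the catalytic subunit of the Polycomb complex that represses muscle genes. For Setd7 (chr3:51515319-51560879, minus strand), region 4 (chr3:51559751-51562050), 322 bp upstream of the start and inside an exon of the non-coding gene 5031434O11Rik, was called in all 6 libraries. Its percentiles were 6.80, 44.9 and 61.2 without dox and 23.0, 6.47 and 81.1 with dox. Its height, 2.33 to 4.88 CPM, was low, where 1 alignment was worth 0.125 to 0.349 CPM, and the groups overlapped throughout. For Ezh2 (chr6:47530139-47595341, minus strand) the window held 1 region (chr6:47593951-47595650), at the start. It stood at percentiles of 21.4 and 10.4 in no dox replicates 1 and 2, was not called in no dox replicate 3, and stood at 60.8, 19.0 and 64.6 with dox. The +dox library was higher within each replicate number, by 39.4, 8.61 and 64.6, while +dox replicate 2 was below no dox replicate 1.

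Hdac1 encodes a deacetylase that holds MyoD1 targets inactive in myoblasts. For this gene (chr4:129516104-129542713, minus strand), start region 5 (chr4:129542201-129543200) stood at percentiles of 60.7 and 27.5 in no dox replicates 2 and 3 and at 72.0, 31.9 and 82.2 with dox. No peak lay in the Hdac1 window in no dox replicate 1. Its Expanded region 3 (chr4:129514251-129515250) was 995 bp from the start of Marcksl1, a gene of the same window, so that its assignment to Hdac1 rests on the window alone.

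Over the 10 windows the highest percentile was higher with dox in group mean in 8 genes, with the exceptions Kat2b (-10.5) and Setd7 (-0.750), where the same held in 89.0% of the protein-coding windows with a region and in 84.9% of those with a Core region. Without both replicates 3 the difference was -18.3 for Kat2b, -11.1 for Setd7, 1.15 for Carm1 (8.08 with them) and 10.4 for Smarca4 (34.0 with them). The groups did not overlap in 3 of 10 (Smarcd3, Ep300 and Prmt5), against 12.8% of all protein-coding windows, 17.8% of the windows that held a region and 25.1% of those that held a Core region, as all 10 did. The call depended on the ranking and the window: by total signal it held for Smarcd3 and Carm1, with 25 kb on each side for Smarcd3 and Prmt5, and by the nearest start for Ep300 and Prmt5. The +dox library was the higher in 9, 4 and 10 windows within replicate numbers 1, 2 and 3, and in 4 windows (Smarcd3, Ep300, Prmt5 and Ezh2) within all 3. Over all windows with a Core region the +dox library was the higher in 71.5%, 47.6% and 97.9% within these numbers. The counts of cofactors within each single number were thus near those of other bound genes. The share of all windows higher within all 3 numbers was not taken. Among the 36 other cofactor genes the groups did not overlap in 13, 20 windows had a Core region and 14 an Expanded one, and none held 4 or more regions called in all 6 libraries.

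**Figure D3:**
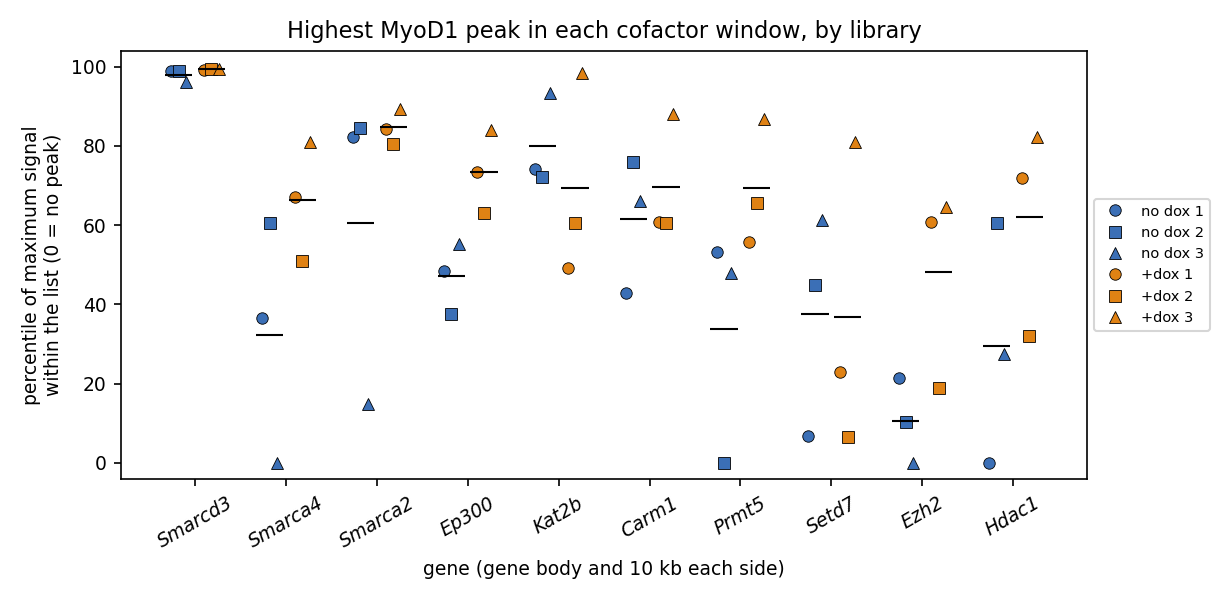
Percentile of the highest peak (y axis, 0 where a library had no peak) in the window of each cofactor gene (x axis). Blue points are no dox and orange points +dox libraries, circles, squares and triangles are replicates 1, 2 and 3, and lines are group means; the groups are apart on this scale in Smarcd3, Ep300 and Prmt5.

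The number of peaks in the windows was higher with dox mainly through 1 library. There were 14, 16 and 17 peaks without dox and 19, 19 and 43 with dox, a mean of 15.7 ± 1.53 against 27.0 ± 13.9 (SD, n = 3 each), so the difference of 11.3 was smaller than the spread of the +dox libraries. Without +dox replicate 3 it was 3.33, and without both replicates 3 it was 4. Per 10000 peaks of the list the values were 14.9, 11.5 and 12.7 without dox and 15.2, 14.3 and 8.01 with dox, and at equal list length the difference was 0. Of the 47 regions, 22 were called in +dox replicate 3 alone, against 59.2% of all regions, and 18 of these 22 had a total signal below 837, the lowest called in any list of replicates 1 and 2, as did 84.6% of all regions called in that library alone. None of these 22 lay at the annotated gene start of its member, and 2 lay within 1 kb of another gene start or that of an RNA gene. Starts of shorter transcripts are not counted there. Kat2b region 2 had its maximum at the start of a shorter protein-coding Kat2b transcript. Smarca2 region 5 had its maximum 73 bp from the start of a shorter Smarca2 transcript.

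**Figure D4:**
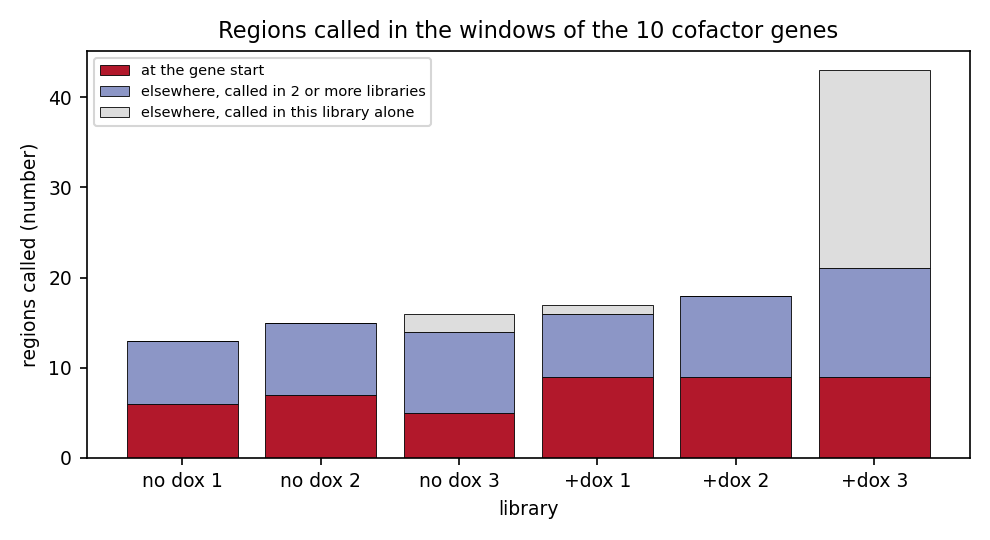
Number of regions called in the windows of the 10 cofactor genes (y axis) in each library (x axis), split into regions at the member gene starts (red), other regions called in 2 or more libraries (blue) and other regions called in that library alone (grey). The red part is 5 to 7 without dox and 9 in each +dox library, and the grey part is 22 in +dox replicate 3 and 0 to 2 in the others.

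The height of the 7 regions called in all 6 libraries was compared between groups in a fit over all 4838 such regions. On the log2 scale of maximum signal (limma, +dox minus no dox) no region of the series passed an adjusted p of 0.05 in either direction: 0% were called higher and 0% lower, with 1173 regions at an unadjusted p under 0.05. The median difference over all regions was 0.91, and 96.1% were positive. The 7 cofactor regions were at 1.22 ± 0.637 (SE) for Smarcd3 region 3, 1.19 ± 0.574 for Ep300 region 1, 0.93 ± 0.567 for Smarcd3 region 8, 0.92 ± 0.629 for Smarcd3 region 7, 0.60 ± 0.577 for Smarcd3 region 9, 0.45 ± 0.592 for Kat2b region 5 and 0.22 ± 0.551 for Setd7 region 4. Their limma adjusted p ranged from 0.206 (Ep300) to 0.753 (Setd7). Without +dox replicate 3, limma called 40.4% of regions higher, among them Smarcd3 region 3 (adjusted p = 0.0113) and Ep300 region 1 (adjusted p = 0.0200). In rank the 7 regions had a mean percentile of 54.9, 67.2 and 70.6 in no dox replicates 1, 2 and 3 and of 60.3, 59.1 and 90.5 in +dox replicates 1, 2 and 3, so the groups overlapped.

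Same-numbered libraries of the 2 groups deviated together, and a limma fit with the replicate number as a block called 53.5% of regions higher and 0.0620% lower. Of the 7 cofactor regions it called 4 higher: Smarcd3 region 3 (limma adjusted p = 0.00762), Ep300 region 1 (0.00914), Smarcd3 region 8 (0.0377) and Smarcd3 region 7 (0.0404). The 4 of 7 is near the share of all regions. Relative to the median of all regions, by centring each library on its own median, no region of the series was called with or without the block, and the 7 cofactor regions lay between -0.71 (Setd7 region 4) and 0.29 (Smarcd3 region 3). CPM carries no spike-in, so the common difference of 0.91 cannot be told apart from a difference in scale between the libraries.

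**Figure D5:**
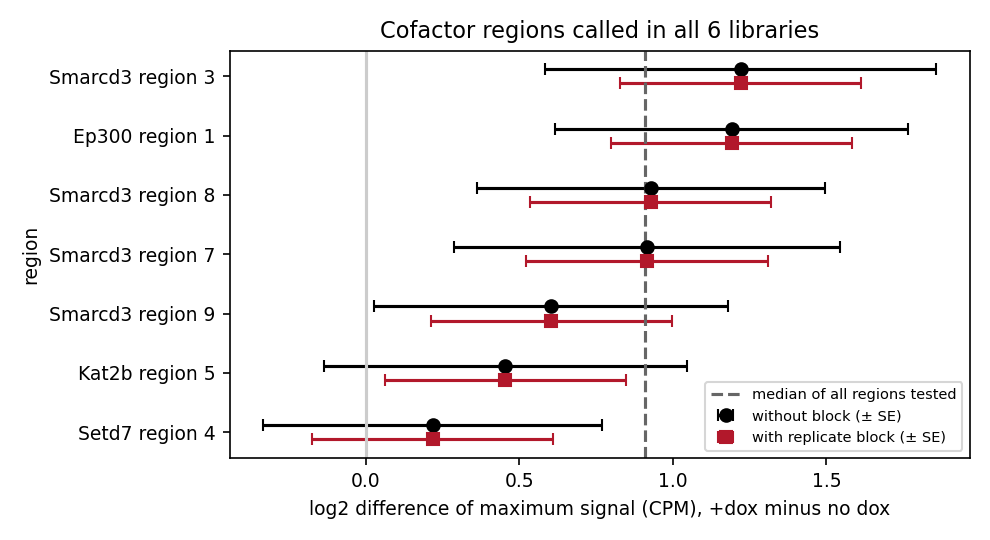
Difference in log2 maximum signal (x axis, CPM, +dox minus no dox) of the 7 cofactor regions called in all 6 libraries (y axis), from limma without (black) and with (red) the replicate number as a block; bars are standard errors. The dashed line at 0.91 is the median of all 4838 regions tested, and each region's bar without the block either crosses it or, for Setd7 region 4, ends below it.

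The cofactor regions held E-boxes about as often as other regions. CAGCTG lay within 33 of 47 regions, each extended by 100 bp, against 64.1% of all regions, and within 6 of the 7 called in all 6 libraries, against 85.4%. Within 100 bp of the maximum it lay in 13 of 47 (29.4% of all regions) and in 4 of 7 (46.8%). CAGGTG, in either orientation, lay in 31 of 47 (66.0%), and TGANTCA, the form bound by AP-1 factors, in 17 of 47 (38.1%). The 9 start regions held CAGCTG in 6 cases, against 56.1% of all regions at protein-coding gene starts. The 200 bases around their maximum had a median GC content of 72.5%, against 65.5% for all regions at protein-coding gene starts. The other 38 member regions had 53.5%, the same value as all regions away from these starts. Of the 47 regions 16 had a maximum within 1 kb of the start of any annotated gene, against 20.0% of all regions.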

How the data were processed

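The authors ran the nf-core/cutandrun pipeline on mm10, removed blacklisted intervals, scaled coverage by CPM and called peaks per library with SEACR in relaxed mode. A control library or threshold for SEACR is not given in the sources used here. The deposited signal values are the total and the maximum coverage of each peak. Maxima were whole multiples of 1 step per list, which gave depth. Overlapping or adjoining peaks of the 6 lists formed 1 region, and a library's value in a region was its highest maximum. Percentiles are mid-ranks within a list. Gene windows came from GENCODE M21. Heights were tested with limma 3.58.1 (R 4.3.3) on log2 maximum signal over regions called in all 6 libraries, two-sided, with Benjamini-Hochberg adjustment. Groups are 3 biological replicates each. Replicate numbers were taken to pair the libraries, since deviations from the group means correlated at 0.485, 0.267 and 0.628 in same-numbered pairs. No dox 1 with +dox 2 (0.265) and no dox 2 with +dox 1 (0.219) were close to the second pair, while pairs of a replicate 3 with a replicate 1 or 2 were negative, so the pairing rests mostly on the replicates 3. Scripts used Python 3.11.15, NumPy 2.4.6 and pandas 2.3.3 and were tested on simulated data.

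The members, gene lists and tests were chosen with earlier results of these data known. Named regions are, in each window, that with the highest mean percentile, those called in 3 of 3 libraries of one group and none of the other, and those called by limma. Other regions, CAGGTG, the gene-start counts and the alternatives that leave out both replicates 3 or apply one floor were chosen after their values were seen.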

Additional observations from a re-analysis of the deposited data

How the results depend on the processing

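The values below are +dox minus no dox unless they are counts. Leaving out each library in turn moved the difference in peaks in the 10 windows between 3.33 and 15.3, the number of regions between 26 and 47, Core regions between 9 and 14, Expanded regions between 2 and 9, regions called in every library between 7 and 10, gene starts called in every +dox but not every no dox library between 4 and 7, windows whose groups did not overlap between 3 and 6, and the mean percentile of regions called in all libraries between -4.51 and 11.4. The lowest of these percentile differences and the 26 regions came without +dox replicate 3, the 9 Core and 9 Expanded regions without no dox replicate 2, the 2 Expanded regions and 6 separated windows without +dox replicate 2, and the 4 gene starts without no dox replicate 3. The highest percentile moved between -1.26 and 15.3 for Carm1 and between -22.9 and 14.4 for Setd7. Limma calls were 0 to 1958 higher and 0 to 5 lower, with the calls arising without +dox replicate 3, and the log2 difference moved between -0.12 and 0.76 for Kat2b region 5 and between -0.037 and 0.46 for Setd7 region 4.

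Cut to equal length, the lists gave a difference of 0 peaks, 19 regions, 2 Expanded regions, 0 regions called in every +dox and no other library, 3 gene starts called in every +dox library and 2 of those not in every no dox library. Per 10000 peaks the difference in peaks was -0.542. The gene body alone left 2 Expanded regions and 1 called in the +dox libraries alone, with Carm1 at -5.11 in highest percentile, and a flank of 25 kb gave 5.34 for Kat2b. Where the nearest start had to be the member's, 27 regions, 1 Expanded, 4 called in every library and 1 called in the +dox libraries alone were left. Asking for 3 of 3 libraries gave 8 Core and 8 Expanded regions, and peaks cut to 250 bp on each side of the maximum gave 1 region called in the +dox libraries alone. Ranked among the regions called in all 6 libraries, the mean percentile of the cofactor regions differed by -2.41, and Kat2b was at 1.60 when ranked by total signal. CAGCTG lay within 100 bp of the maximum in 27.7% of regions. One floor of total signal left 24 regions and 1 called in the +dox libraries alone. Without both replicates 3 there were 23 regions, 11 called in every library, 4 gene starts called in every +dox but not every no dox library, 6 Expanded regions and a difference of 4 peaks, and Smarca2 was at -0.894.

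With the replicate number as a block limma called 2586 regions higher and 3 lower, and without both replicates 3 it called 2273 higher and 12 lower. With each library centred on its median it called 0 in either direction, with or without the block or the replicates 3, where 123 regions were at an unadjusted p under 0.05 without the block and 572 with the replicate block. Centred, the log2 differences were -0.47 for Kat2b region 5, -0.71 for Setd7 region 4, -0.010 for Smarcd3 region 7 and -0.32 for Smarcd3 region 9, the same with the replicate block, and -0.82, -0.67, -0.44 and -0.60 without both replicates 3. On total signal Setd7 region 4 was at -0.18. As percentiles Kat2b region 5, Setd7 region 4 and Smarcd3 region 7 differed by -10.5, -0.750 and -1.82. The cause of these changes was not tested beyond the construction of each alternative. With 3 libraries a group, no spike-in and no untagged control analysed here, small differences in height could not be detected.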
